A study of Saccharomyces cerevisiae with 3 samples.

Results

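The transcribed spacers of the yeast rRNA precursor are the stretches of RDN37 that lie around and between the 18S, 5.8S and 25S rRNAs and are discarded as ribosomes mature. They were chosen by name, as the 4 of the 8 rDNA segments listed in each file that are not a mature rRNA: ETS1-2 (700 nt), ITS1-2 (361 nt), ITS2-2 (232 nt) and ETS2-2 (211 nt). Together they cover 1504 of the 6858 nt of RDN37, and the 3 mature rRNAs cover the other 5354 nt. The study asked where on the ribosome Get4 binds, using PAR-CRAC, which sequences RNA fragments that had been crosslinked in vivo and co-purify with a tagged protein. Get4 is a subunit of the Get4/5 complex, which takes part in the delivery of tail-anchored proteins to the ER. There were 2 libraries from BY4741 yeast whose chromosomal Get4 gene carries a C-terminal His-Tev-ProtA tag (Get4-HTP 1 and Get4-HTP 2) and 1 library from BY4741 with no tag (wild type), so that wild type shows what is recovered without a tagged protein. Cells of all groups grew exponentially in low uracil medium with 4-thiouracil and were irradiated at 365 nm. The study's text calls its Get4-HTP experiments biological replicates, and the labels do not name the cultures.

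The 35S pre-rRNA is transcribed by RNA polymerase I as 1 molecule in the order ETS1, 18S, ITS1, 5.8S, ITS2, 25S, ETS2. The external spacers (ETS) flank the transcript and the internal spacers (ITS) separate the rRNAs. Endonucleases and exonucleases remove them in the nucleolus, the nucleoplasm and, for some of the last steps, the cytoplasm. Cleavage at site A2 in ITS1 separates the precursor of the small subunit from that of the large subunit. Away from the rRNA ends, a read in a spacer therefore comes from a precursor or from an excised fragment, and not from a finished ribosome.

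The bases at the 6 junctions are given because reads that run from a mature rRNA into a spacer are kept apart in what follows. They were read from the deposited files, 5′ to 3′ in DNA letters, with 20 nt on each side, the rRNA in capitals and the spacer in lower case.
ETS1-2/RDN18-2: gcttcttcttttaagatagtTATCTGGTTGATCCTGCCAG
RDN18-2/ITS1-2: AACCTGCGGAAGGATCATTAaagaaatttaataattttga
ITS1-2/RDN58-2: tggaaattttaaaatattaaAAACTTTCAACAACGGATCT
RDN58-2/ITS2-2: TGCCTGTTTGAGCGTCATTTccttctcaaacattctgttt
ITS2-2/RDN25-2: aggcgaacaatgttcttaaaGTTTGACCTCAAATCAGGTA
RDN25-2/ETS2-2: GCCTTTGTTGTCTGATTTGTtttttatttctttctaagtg

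Crosslinks are read at T, so the base composition bears on what each spacer can yield. T made up 30.1% of ETS1-2, 33.5% of ITS1-2, 37.1% of ITS2-2 and 37.4% of ETS2-2. Over the 4 spacers T made up 33.0% of the bases, against 26.6% in the rRNAs, and A and T together 61.4%, against 53.2%. The spacers thus hold more T per length than the rRNAs, with 497 T in all. The stretches below, again 5′ to 3′, are those in which the most substituted T of ETS1-2, ITS1-2 and ITS2-2 lie, and the capitals mark the T named later.
ETS1-2 around T491: gtgcTatggtatggTgacggagTgcgctg
ITS1-2 around T184: ctgtgcttttgttaTaggacaattaaaac
ITS2-2 around T143: cggtcgttttaggtTtTaccaactgcggc

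The files count, at each nucleotide, the reads that cover it (hits) and the reads with a T-C substitution there. The authors had discarded all reads but those with 1 T-C mutation, so that 1 substitution stands for about 1 read, and 32.1, 32.5 and 32.2 hits accompanied each spacer substitution in Get4-HTP 1, Get4-HTP 2 and wild type. RDN37 received 913351 hits in Get4-HTP 1, 1002810 in Get4-HTP 2 and 403056 in wild type. The 25S nucleotides 1391 to 1454 in helices h46/h47, a stretch of 64 nt, took 20.1% and 50.8% of these hits in the Get4-HTP libraries and 3.62% in wild type. That stretch lowers every other share in a library, so spacer shares are given mainly relative to the hits outside it, which numbered 729706 in Get4-HTP 1, 493160 in Get4-HTP 2 and 388462 in wild type. The wild type library was amplified with 35 PCR cycles and both Get4-HTP libraries with 24, and strain and cycle number cannot be told apart. The library names in the file headers of Get4-HTP 1 and wild type share a code and that of Get4-HTP 2 has another. What the code stands for is not given in the sources used here, and the ratio of Get4-HTP 1 to wild type is the one within a code. With 1 wild type library no test between strains was possible, and all intervals below are 95% intervals on substitutions that cover counting error only.

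The spacers were a small part of the reads in every library, and a smaller part in Get4-HTP than in wild type. They held 1.95% of RDN37 hits outside h46/h47 for Get4-HTP 1 and 1.53% for Get4-HTP 2, against 2.70% in wild type. Get4-HTP averaged 1.74% ± 0.302 (SD, n = 2), and wild type lay above both libraries by more than this spread. In hits, the spacers amounted to 14263, 7532 and 10493, and in substitutions to 445, 232 and 326 (Get4-HTP 1, Get4-HTP 2, wild type). The ratio of shares to wild type was 0.724 for Get4-HTP 1 and 0.565 for Get4-HTP 2. Counted in substitutions, it was 0.736 (interval 0.639 to 0.848) and 0.592 (0.501 to 0.699). Per length the spacers had 7.01% and 5.46% of the mean hits of the rRNAs in the Get4-HTP libraries and 9.76% in wild type. Of their nucleotides, 124 in Get4-HTP 1, 424 in Get4-HTP 2 and 223 in wild type had no hit, while in the rRNAs this was so for 0, 1 and 0.

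The 4 spacers did not move together. ETS1-2, the leader that precedes 18S and to which the U3 snoRNA binds in the early processome, held less in both Get4-HTP libraries. It had 5470 hits in Get4-HTP 1, 1931 in Get4-HTP 2 and 5401 in wild type, which is 0.750%, 0.392% and 1.39% of RDN37 hits outside h46/h47. The ratio to wild type was 0.539 for Get4-HTP 1 and 0.282 for Get4-HTP 2, and in substitutions 0.527 (0.426 to 0.652) and 0.264 (0.195 to 0.358). Both intervals lie below 1. ETS1-2 also lay below wild type in both libraries relative to 18S (0.421 and 0.188) and relative to 25S outside h46/h47 (0.582 and 0.342).

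ITS1-2, which separates 18S from 5.8S, was not lower in this way. It had 5395 and 4612 hits in the Get4-HTP libraries and 3011 in wild type, or 0.739%, 0.935% and 0.775% of RDN37 hits outside h46/h47. The wild type share lay between the Get4-HTP shares. In substitutions the ratio was 0.983 (0.761 to 1.27) for Get4-HTP 1 and 1.36 (1.05 to 1.76) for Get4-HTP 2. Its direction depended on the scale: relative to 18S, ITS1-2 was below wild type in both libraries (0.744 and 0.804), and relative to 25S outside h46/h47 it was above in both (1.03 and 1.46). The 18S share itself was 1.28 and 1.5 times that of wild type.

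ITS2-2, the spacer between 5.8S and 25S whose foot carries assembly factors of the large subunit, differed between the Get4-HTP libraries. It had 3131 hits in Get4-HTP 1, 938 in Get4-HTP 2 and 1860 in wild type, or 0.429%, 0.190% and 0.479%. The substitution ratio was 0.984 (0.713 to 1.36) for Get4-HTP 1 and 0.423 (0.271 to 0.661) for Get4-HTP 2. Within the shared code, ITS2-2 of Get4-HTP 1 could not be distinguished from wild type at this depth, where the interval allows ratios from 0.713 to 1.36. Set against Get4-HTP 1, the substitution share of Get4-HTP 2 was 0.430 times for ITS2-2 (0.285 to 0.648), 0.501 times for ETS1-2 (0.369 to 0.681) and 1.38 times for ITS1-2 (1.11 to 1.72), so the Get4-HTP libraries differed from each other beyond counting error in all 3.

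ETS2-2, the trailer behind 25S, was nearly empty in all libraries. It had 267 hits in Get4-HTP 1, 51 in Get4-HTP 2 and 221 in wild type, with 11, 2 and 9 substitutions. Its mean hits per nucleotide were 0.936%, 0.263% and 1.47% of those of the rRNAs, against 5.78%, 3.0% and 10.8% for ETS1-2. With so few reads the substitution ratios to wild type were wide, at 0.659 (0.273 to 1.59) and 0.185 (0.0399 to 0.855).

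Taken as shares of the spacer substitutions alone, which do not depend on rRNA, the makeup also differed. ETS1-2 supplied 37.3% (32.9 to 41.9) for Get4-HTP 1 and 23.3% (18.3 to 29.1) for Get4-HTP 2, against 52.1% (46.7 to 57.5) in wild type. ITS1-2 supplied 36.9% (32.5 to 41.4) and 63.4% (57.0 to 69.3), against 27.6% (23.0 to 32.7). For ETS1-2 the wild type interval overlapped neither Get4-HTP interval, while for ITS1-2 it overlapped that of Get4-HTP 1 at its edge and not that of Get4-HTP 2. ETS1-2 had 166 substitutions and ITS1-2 164 for Get4-HTP 1, 54 and 147 for Get4-HTP 2, and 170 and 90 for wild type, so that ITS1-2 clearly exceeded ETS1-2 in Get4-HTP 2 only. ITS2-2 supplied 23.4% and 12.5%, against 17.5% in wild type, which lay between the Get4-HTP libraries.

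**Figure D1:**
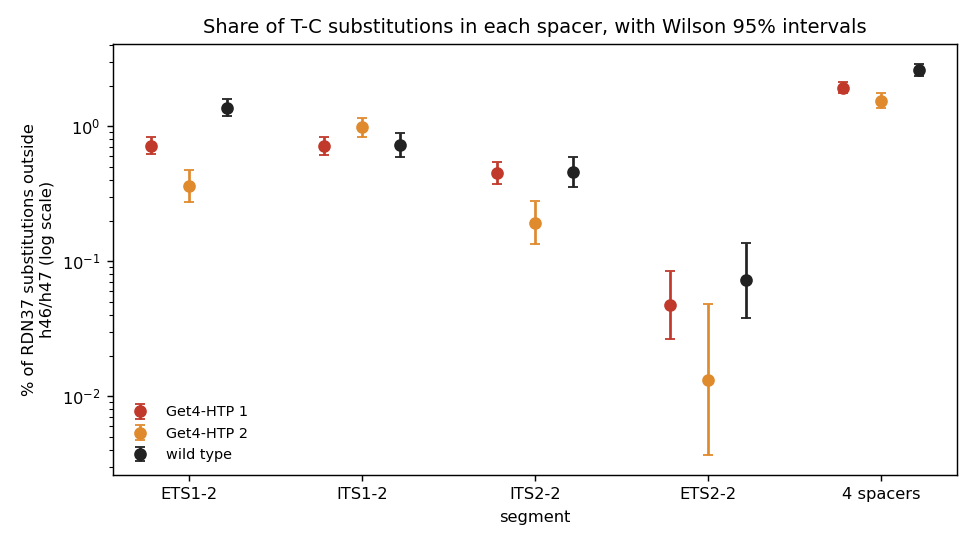
Share of RDN37 T-C substitutions outside h46/h47 that fell in each spacer and in all 4 (y axis in percent, log scale), for Get4-HTP 1, Get4-HTP 2 and wild type, with Wilson 95% intervals as bars. ETS1-2 lay lower in both Get4-HTP libraries (0.719% and 0.360%) than in wild type (1.36%), while the ITS1-2 share of wild type (0.722%) lay between those of Get4-HTP 1 (0.710%) and Get4-HTP 2 (0.981%), an order that changes when shares are taken relative to 18S or 25S.

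A read on a mature rRNA end can reach into a spacer, so the junctions were examined nucleotide by nucleotide. In the files each spacer includes 1 nt of its neighboring rRNA, and reads over that nucleotide made up much of the spacer reads that the file headers count: 516 of 956 (54.0%) in Get4-HTP 1, 272 of 501 (54.3%) in Get4-HTP 2 and 519 of 840 (61.8%) in wild type. For ETS2-2 they made up 96.6%, 97.7% and 89.7%. The header counts of spacer reads thus mix spacer with rRNA, and the hits above leave the shared nucleotide with the rRNA. Without the reads over it, 440, 229 and 321 reads remained, close to the numbers of spacer substitutions.

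Hits changed abruptly at some junctions and gradually at others. At the start of 18S, where A1 cleavage ends ETS1, the last ETS1-2 nucleotide had 14 hits in Get4-HTP 1, 0 in Get4-HTP 2 and 18 in wild type, and the first 18S nucleotide 96, 51 and 106. At the end of 25S hits fell off as abruptly, with 201, 84 and 70 hits on its last nucleotide and 16, 2 and 2 on the first of ETS2-2. At the start of 5.8S hits increased already within ITS1-2: its last nucleotide had 51 hits in Get4-HTP 1, 40 in Get4-HTP 2 and 49 in wild type, and the first of 5.8S had 209, 114 and 302. The rise inside the spacer covered only a few nucleotides, since position 358 of ITS1-2 had 16, 9 and 11 hits. As background, a part of the 5.8S rRNA of yeast begins a few nucleotides further upstream, inside ITS1.

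At the other junctions the largest change lay inside the rRNA. Between 18S and ITS1-2 the first spacer nucleotide had 12 hits in Get4-HTP 1, 7 in Get4-HTP 2 and 7 in wild type, and the last 18S nucleotide 13, 8 and 7, so that no step was seen there. Towards ITS2-2 hits dropped behind nucleotide 152 of 5.8S, which had 205, 157 and 85 hits against 59, 48 and 27 on the nucleotide after it, and 8, 1 and 7 on the first of ITS2-2. Between ITS2-2 and 25S hits increased at nucleotide 3 of 25S, with 53 hits there in Get4-HTP 1, 62 in Get4-HTP 2 and 167 in wild type. Accordingly the last ITS2-2 nucleotide had 9, 18 and 32 hits, in the same order of libraries, and the first 25S nucleotide 10, 23 and 41.

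**Figure D2:**
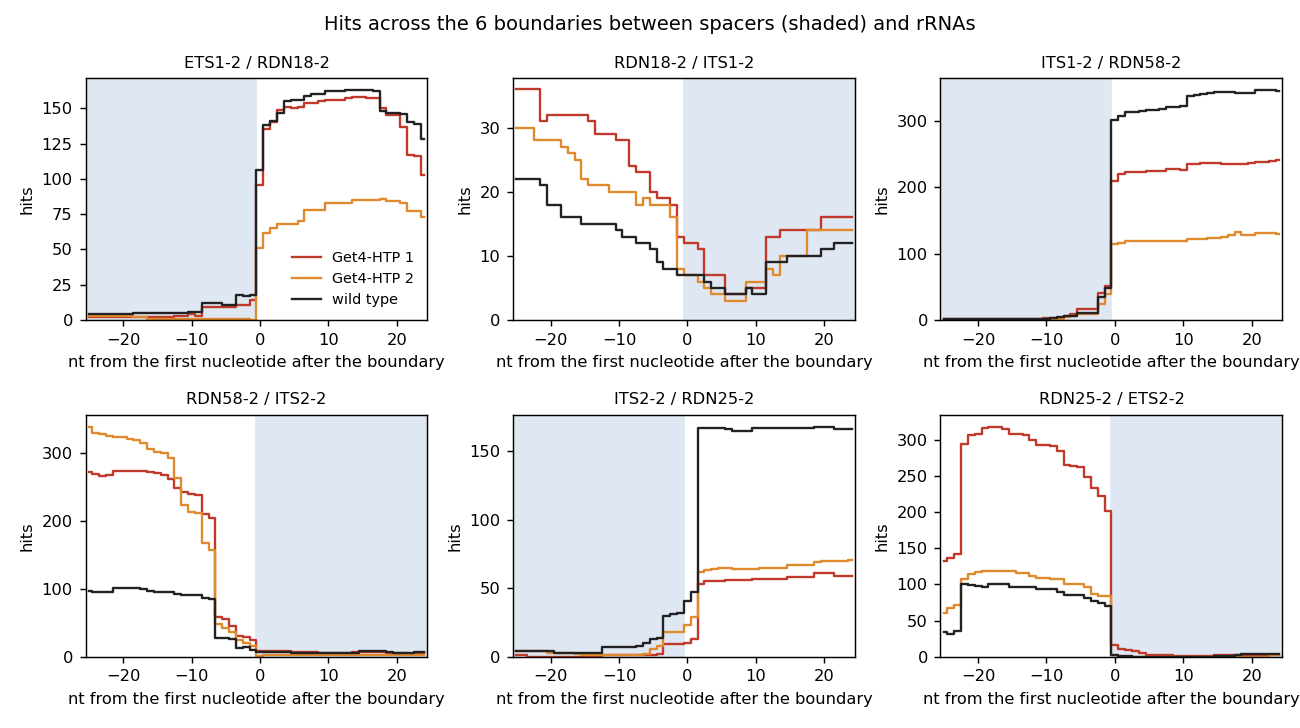
Hits at each nucleotide from 25 nt before to 24 nt after the 6 junctions (x axis in nt from the first nucleotide after the junction, y axis raw hits with its own scale in each panel), spacer side shaded, for Get4-HTP 1, Get4-HTP 2 and wild type. Hits stepped at the junction itself for ETS1-2/RDN18-2, ITS1-2/RDN58-2 and RDN25-2/ETS2-2, and inside the rRNA for RDN58-2/ITS2-2 and ITS2-2/RDN25-2.

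Most spacer hits lay away from the junctions. Within 35 nt of a mature rRNA, about the length of 1 read, lay 8.08% of spacer hits in Get4-HTP 1, 10.7% in Get4-HTP 2 and 12.5% in wild type, on 14% of the spacer nucleotides. The mean of Get4-HTP was 9.38% ± 1.85 (SD, n = 2), so in hits the mean differed from wild type by more than this SD. In substitutions the difference was smaller, at -2.36 percentage points for Get4-HTP 1 and -0.574 for Get4-HTP 2. It rests on 40, 25 and 37 substitutions near an rRNA, and no interval was computed for it. Counted in hits, ETS2-2 went the other way, with 48.1% of them there as the Get4-HTP mean against 42.5% in wild type. This was not seen in substitutions, of which 5 lay near 25S and 6 further inside for Get4-HTP 1. The same counts were 0 and 2 for Get4-HTP 2 and 6 and 3 for wild type, too few for a comparison. Without these zones the ratio of the 4 spacers to wild type was 0.760 for Get4-HTP 1 and 0.577 for Get4-HTP 2. For inner ETS1-2 it was 0.547 and 0.284, for inner ITS2-2 1.12 and 0.399, and for inner ITS1-2, whose direction again depends on the scale, 1.02 and 1.31. The lower ETS1-2 share was thus as large without the nucleotides beside 18S, whereas inner ITS2-2 of Get4-HTP 1 lay slightly above wild type on this scale.

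Along ETS1-2 the signal was concentrated in blocks, and those described here were picked for being common to all libraries. Others were not, such as the wild type runs at 237 to 274 (up to 13 hits) and 532 to 559 (up to 16 hits). Nucleotides that exceeded 20% of the highest inner nucleotide in every library formed runs at 23 to 35, 331 to 350, 475 to 516 and 611 to 643. The run from 475 to 516 contained the highest nucleotide of each library, at position 493 in Get4-HTP 1 (56 hits) and wild type (41 hits) and at 489 in Get4-HTP 2 (12 hits). On 6.0% of the nucleotides this run held 30.8% of ETS1-2 hits in Get4-HTP 1, 19.5% in Get4-HTP 2 and 21.8% in wild type. Its share of RDN37 hits outside h46/h47 was 0.763 times wild type for Get4-HTP 1 and 0.253 times for Get4-HTP 2. In substitutions the ratios were 0.737 (0.493 to 1.10) and 0.203 (0.102 to 0.405), so the interval of Get4-HTP 1 included 1. The run from 611 to 643 was more alike in the Get4-HTP libraries, with ratios of 0.389 and 0.397, and hits increased sharply just before it, at position 602, with 7 hits in Get4-HTP 1, 5 in Get4-HTP 2 and 19 in wild type against 2, 1 and 4 on the nucleotide before. In substitutions the ratios of the run from 611 to 643 were 0.424 (0.192 to 0.933) and 0.356 (0.137 to 0.927). The run from 331 to 350 had ratios of 0.389 and 0.270, and in substitutions 0.180 (0.0580 to 0.557) and 0.139 (0.0310 to 0.619). It rests on 4 substitutions in Get4-HTP 1, 2 in Get4-HTP 2 and 12 in wild type. At 23 to 35 the Get4-HTP libraries went apart, with 1.09 and 0.240, and Get4-HTP 2 had only 3 hits per nucleotide there and 0 substitutions.

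In the crosslinked positions of ETS1-2, T491 stood out in 2 libraries. It had 43 substitutions among 52 hits in Get4-HTP 1 (82.7%, interval 70.3 to 90.6), 3 among 12 in Get4-HTP 2 (25%, 8.89 to 53.2) and 21 among 40 in wild type (52.5%, 37.5 to 67.1). This single T carried 25.9% of the ETS1-2 substitutions in Get4-HTP 1, 5.56% in Get4-HTP 2 and 12.4% in wild type, and it lies in the tallest run of every library. T499 had 7 of 55, 0 of 12 and 8 of 35, and T481 had 0 of 20, 3 of 3 and 1 of 19. Far from this run, T25 had 14 of 20, 0 of 3 and 4 of 10. T491 and T25 were substituted in wild type as well, where no protein is tagged.

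The profile of ITS1-2 had a broad block in its first part in all libraries. A second block ran from 213 to 275 in Get4-HTP 1 and from 210 to 277 in wild type. In Get4-HTP 2 the run there covered only 249 to 276. Get4-HTP 1 also had a run at 76 to 124 (up to 23 hits) and wild type a short one at 76 to 86 (up to 6 hits). The run from 153 to 195 held 27.6% of ITS1-2 hits in Get4-HTP 1, 42.2% in Get4-HTP 2 and 26.8% in wild type, on 11.9% of the nucleotides. Its mean was 34.7 hits per nucleotide in Get4-HTP 1, 45.3 in Get4-HTP 2 and 18.7 in wild type. The ratio to wild type was 0.985 for Get4-HTP 1 and 1.90 for Get4-HTP 2, and in substitutions 1.13 (0.665 to 1.93) and 2.45 (1.48 to 4.07). On this scale the block differed from wild type beyond counting error in Get4-HTP 2 only, whose file header carries another code than that of wild type. The run from 249 to 275 had ratios of 0.541 and 0.753, and in substitutions 0.385 (0.171 to 0.867) and 0.891 (0.430 to 1.84). The interval of Get4-HTP 2 included 1.

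At position 213 of ITS1-2 hits increased in Get4-HTP 1 more than anywhere else at least 10 nt from an rRNA in this spacer. In Get4-HTP 1 there were 6 hits on nucleotide 212 and 23 on nucleotide 213, in Get4-HTP 2 there were 4 and 5, and in wild type 6 and 9. In Get4-HTP 2 the largest drop lay beside it, with 15 hits at 210 and 5 at 211. Site A2 of S. cerevisiae is known to lie between nucleotides 212 and 213. The bases around it follow, with nucleotide 213 as the capital.
ITS1-2 198 to 227: ccgtttcaatacaacAcactgtggagtttt

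Dividing ITS1-2 at this point, a division made after the values were seen, gave 2 parts that differed in their relation to wild type. Nucleotides 1 to 212, which stay with the small subunit precursor after A2 cleavage, had 3467 hits in Get4-HTP 1, 3716 in Get4-HTP 2 and 1690 in wild type. Nucleotides 213 to 361, which stay with the large subunit precursor, had 1928, 896 and 1321. The first part took 64.3% and 80.6% of ITS1-2 hits in the Get4-HTP libraries and 56.1% in wild type. Its ratio to wild type was 1.09 for Get4-HTP 1 and 1.73 for Get4-HTP 2, and in substitutions 1.17 (0.828 to 1.66) and 2.08 (1.48 to 2.92). For the second part the ratios were 0.777 and 0.534, and in substitutions 0.785 (0.535 to 1.15) and 0.604 (0.384 to 0.953). On this scale the intervals of Get4-HTP 1 included 1 in both parts, and those of Get4-HTP 2 did not. Taken relative to 18S, each ratio in hits is smaller by the 18S factor of 1.28 or 1.5 given above. The ratios in substitutions are smaller by 1.28 for Get4-HTP 1 and 1.60 for Get4-HTP 2. The first part of Get4-HTP 1 thus falls below wild type relative to 18S. For that part of Get4-HTP 2 the factor of 1.60 exceeds the lower limit of 1.48. Its excess over wild type beyond counting error is therefore not shown relative to 18S, where no interval was computed.

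Substitutions in ITS1-2 were spread over several T, and the most substituted T of a library carried 7.32% of them in Get4-HTP 1 (T111), 12.2% in Get4-HTP 2 (T184) and 10% in wild type (T256). T184, in the broad block, had 11 substitutions among 38 hits in Get4-HTP 1, 18 among 50 in Get4-HTP 2 and 3 among 21 in wild type. T256 in the second part had 6 of 22, 11 of 19 and 9 of 22. T111 had 12 of 22, 2 of 11 and 0 of 2, and T150 had 3 of 12, 10 of 23 and 0 of 4. Wild type coverage of T111 and T150 was too low to show a substitution of the size seen in the Get4-HTP libraries, and the interval of the wild type share reached 65.8% at T111 and 49.0% at T150.

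In ITS2-2 the inner signal formed 1 long run from 57 to 159, on 44.4% of its nucleotides. It held 79.0% of ITS2-2 hits in Get4-HTP 1, 66.3% in Get4-HTP 2 and 60.1% in wild type. The ratio to wild type was 1.18 for Get4-HTP 1 and 0.438 for Get4-HTP 2, in substitutions 1.16 (0.795 to 1.70) and 0.448 (0.263 to 0.760). In Get4-HTP 2 and wild type the highest nucleotides of the whole spacer lay instead near 25S, at 230 (18 hits) and 232 (32 hits), whereas in Get4-HTP 1 the highest lay inside, at 83 (34 hits). T143 had 16 substitutions among 28 hits in Get4-HTP 1, 0 among 3 in Get4-HTP 2 and 4 among 9 in wild type. T145 had 7 of 28, 3 of 4 and 4 of 9, and T111 of ITS2-2 had 10 of 23, 1 of 10 and 3 of 17. ETS2-2 had its only common run at 37 to 49, with at most 3, 2 and 6 hits on a nucleotide, and its T27 was substituted in 5 of 6 wild type reads, in 0 of 3 reads of Get4-HTP 1 and in 0 of 2 of Get4-HTP 2. The positions of ETS2-2 count the last nucleotide of 25S as 1, as the files do.

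**Figure D3:**
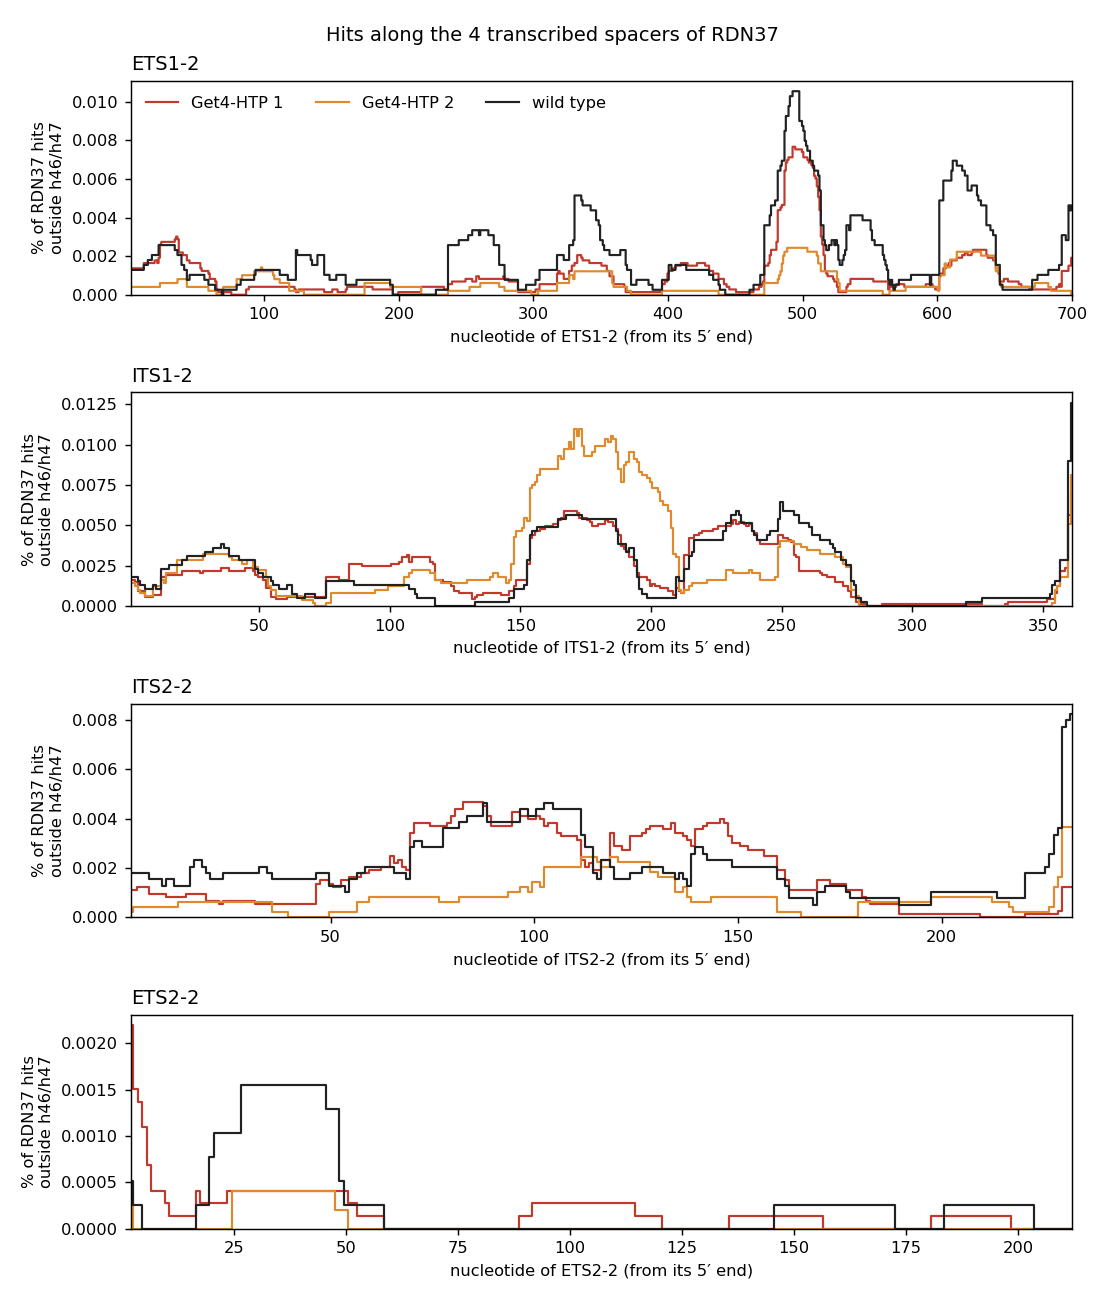
Hits at each nucleotide of the 4 spacers, as a percentage of RDN37 hits outside h46/h47 in that library (y axis, linear, own scale in each panel), against the position in the spacer (x axis, nt), for Get4-HTP 1, Get4-HTP 2 and wild type. The tallest ETS1-2 block (475 to 516) was present in all libraries and highest in wild type, and the ITS1-2 block from 153 to 195 was, on this scale, highest in Get4-HTP 2.

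The spread of signal along the spacers was described over 62 windows of 25 nt. Between Get4-HTP 1 and Get4-HTP 2 Pearson's r was 0.648 and Spearman's rho 0.789, between Get4-HTP 1 and wild type 0.763 and 0.787, and between Get4-HTP 2 and wild type 0.541 and 0.754. Adjacent windows share reads and the libraries share their base sequence, so these values are descriptions. By Pearson's r Get4-HTP 1 was closer to wild type than to Get4-HTP 2, and by Spearman's rho it was about equally close to both.

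Where along the spacers the Get4-HTP libraries fell below wild type was counted over 50-nt bins of RDN37 outside h46/h47, calling a bin lower where its share was at most 0.5 times wild type in both libraries and higher where it was at least 2 times wild type in both. Of the 30 bins inside the spacers, 6 were lower (20%), against 8.15% of all 135 bins. All 6 lay in ETS1-2, where they were 6 of 14 bins (42.9%), and none lay in the 16 bins of the other spacers, of which the last in ETS2-2 had no hit in any library. They began at nucleotides 101, 251, 301, 351, 551 and 601 of ETS1-2, and their ratios to wild type lay between 0.265 and 0.468. These bins rest on few reads, and no interval was computed for them. In Get4-HTP 1, Get4-HTP 2 and wild type, the bin beginning at 551 had 3, 2 and 4 substitutions. The bin beginning at 351 had 10, 4 and 8, and the one at 601 had 16, 11 and 27. Of all 135 bins 105 hold rRNA, which had far more hits per length, so the shares compare bins of unlike depth. The ETS2-2 bins beginning at 55 and 105 could not be called lower. They had 4 and 9 wild type hits, and with 0 hits in Get4-HTP 2 the pseudocount gave ratios of 0.877 and 0.760. With bins of 25 nt, 13 of 60 spacer bins were lower (21.7%, against 8.86% of all bins). Of these, 9 lay in ETS1-2, 1 in ITS1-2, 1 in ITS2-2 and 2 in ETS2-2. In 11 of the 14 ETS1-2 bins the ratio was below 1 in both libraries, against 56 of all 135 bins, and the median ratio of the ETS1-2 bins was 0.538 for Get4-HTP 1 and 0.347 for Get4-HTP 2 against 0.985 and 0.880 over all bins. The bin from 601 to 650 had 636 hits in Get4-HTP 1, 430 in Get4-HTP 2 and 904 in wild type, and the bin from 251 to 300 had 233, 88 and 362. Get4-HTP 1 exceeded wild type in the bins beginning at 1 (1.11) and 401 (1.2), where Get4-HTP 2 had ratios of 0.367 and 0.274. With a pseudocount of 10% of the mean bin in place of 1%, 0 spacer bins and 3 of all 135 bins were lower, but a pseudocount about as large as a mean spacer bin draws every spacer ratio towards 1. With Get4-HTP 1 alone 7 spacer bins were lower (23.3%, against 11.1% of all bins), and with Get4-HTP 2 alone 17 (56.7%, against 23.0% of all bins).

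1 spacer bin was higher in both, or 3.33% of the spacer bins, against 5.93% of all bins. It was ITS1-2 101 to 150, which had 600 hits in Get4-HTP 1, 464 in Get4-HTP 2 and 89 in wild type, with ratios of 2.97 and 3.60. The bin rests on 27, 23 and 7 substitutions, it includes T107, T111 and T150, and it was no longer called with the larger pseudocount or as a share of all RDN37 hits. With Get4-HTP 2 alone 2 spacer bins were higher (6.67%, against 13.3% of all bins), the second being ITS1-2 151 to 200, with a ratio of 1.01 for Get4-HTP 1 and 2.21 for Get4-HTP 2.

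**Figure D4:**
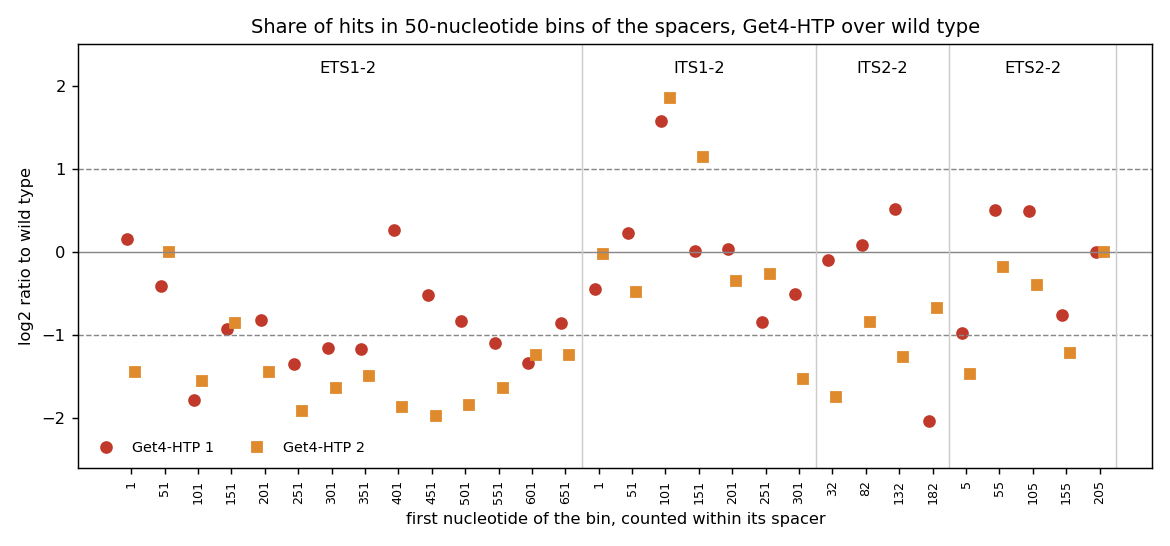
Ratio to wild type of the share of RDN37 hits outside h46/h47 in each 50-nt bin that lies inside a spacer (y axis, log2 scale), for Get4-HTP 1 (circles) and Get4-HTP 2 (squares), in transcript order and with a pseudocount of 1% of the mean bin. Dashed lines mark 2 times and 0.5 times wild type. In ETS1-2, 6 of 14 bins lie below the lower line in both libraries, and 1 bin of ITS1-2 lies above the upper line in both.

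At T positions with at least 20 hits, the share of reads substituted at that T had a median of 5.06% over 82 spacer T in Get4-HTP 1, 9.26% over 23 in Get4-HTP 2 and 10.3% over 36 in wild type. In the rRNAs the medians were 6.80%, 5.56% and 7.48%. The spacer T that pass this minimum differ between the libraries, because it depends on depth. Of all 497 spacer T, 160 in Get4-HTP 1, 102 in Get4-HTP 2 and 154 in wild type carried a substitution, against 1249, 1151 and 1167 of the 1423 T of the rRNAs.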

How the data were processed

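PAR-CRAC libraries of Get4-HTP (2) and wild type (1) yeast were analyzed. The spacers and lists were chosen with earlier results of these data known. The authors trimmed reads with Flexbar, dropped reads under 18 nt, collapsed them by UMI, mapped them with Bowtie 2 (version 2.3.4.2 per the labels; the file headers name a Bowtie 1 folder) with at most 1 mismatch and kept single T-C reads. The genome build is not given in the sources used here. The deposited values are raw counts per nucleotide made by pyPileup. Reads without T-C were absent, so T-poor stretches yield less.

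Segments were joined to RDN37. The annotation (RefSeq, assembly R64) gives its copy 2 the same length of 6858 nt and lists 2 copies of RDN37. The files list copy 2, and how reads of near-identical copies were assigned is not given in the sources used here. The nucleotide shared by spacer and rRNA was counted with the rRNA. Shares used hits outside 25S nucleotides 1391 to 1454. Wilson intervals for shares and Katz intervals for ratios were computed on substitutions. The smallest share that 3 substitutions give is 0.0130% in Get4-HTP 1, 0.0200% in Get4-HTP 2 and 0.0241% in wild type. Bins of 50 nt started at the 5′ end of RDN37, with a pseudocount of 1% of the mean bin, and bins that also hold rRNA were not counted as spacer bins. Named were the highest nucleotide of each library, the 3 T with most substitutions in any library, common runs of at least 10 nt and called bins, and of these T only part is described. The runs common to all libraries, the step positions and the division of ITS1-2 were defined after the values were seen. Alternatives concerned the denominator, substitutions in place of hits, the zone width, the bin width, the pseudocount, filters and each Get4-HTP library alone, and 18S and 25S as denominators were added after the data were seen. The code was tested on simulated data. Python 3.11.15, numpy 2.4.6, pandas 2.3.3, scipy 1.17.1 and matplotlib 3.10.9 were used.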

Additional observations from a re-analysis of the deposited data

How the results depend on the processing

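The ratio of the 4 spacers to wild type, 0.645 as the mean of both Get4-HTP libraries, stayed below 1 under every denominator and measure tried. It was 0.444 relative to all RDN37 hits, 0.160 relative to mapped reads, 0.471 relative to 18S (chosen after seeing the data) and 0.775 over nucleotides with at least 10 hits in every library. For the inner spacers, 0.669, the first 3 of these gave 0.462, 0.167 and 0.489. The first 2 denominators are not particular to spacers. Relative to mapped reads the 3 rRNAs stood at 0.347, and h46/h47 lowers every other Get4-HTP share of all RDN37 hits. Leaving out either Get4-HTP library gave 0.565 to 0.724 for all spacer nucleotides and 0.577 to 0.760 for the inner ones. ITS1-2 was below wild type in 4 of 7 alternatives (0.245 to 1.25), and the other 3 spacers in 7 of 7. The alternatives reuse the same reads and are not independent checks. For ITS2-2, Get4-HTP 1 alone lay near wild type, at 0.896 in hits and 0.984 in substitutions (0.713 to 1.36). The number of lower spacer bins, 6 of 30, was 13 of 60 with bins of 25 nt (21.7%, against 8.86% of all bins), 0 with a pseudocount of 10%, which draws spacer ratios towards 1, 13 of 30 relative to all RDN37 hits (43.3%, against 21.7% of all bins), where h46/h47 lowers every Get4-HTP share, and 7 to 17 with 1 Get4-HTP library (23.3% to 56.7%, against 11.1% to 23.0% of all bins). The number of higher spacer bins, 1, was 3 with bins of 25 nt (5.0%, against 6.27% of all bins), 0 with bins of 100 nt (4.48% of all bins), 0 with a pseudocount of 10% (1.48%), 0 relative to all RDN37 hits (2.17%) and 1 to 2 with 1 Get4-HTP library (3.33% to 6.67%, against 8.15% to 13.3%), below the share over all bins each time. The cause of the other changes was not tested. No paired analysis was possible because wild type has 1 library and no result comes from a test. Depth limits ETS2-2 most, with 2 substitutions in Get4-HTP 2.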
